A study of Mus musculus with 4 samples.

Results

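The acyl-CoA thioesterases described here are 10 genes, Acot1, Acot2, Acot3, Acot4, Acot5, Acot6, Acot8, Acot9, Acot11 and Acot13, out of 30439 genes or transcripts read by the arrays. They were chosen by gene symbol from a list that was drawn up with earlier results of these same arrays known, so their differences are given as a description and none was tested. Every probe that the scanner files name with one of these symbols was taken, which gave 14 probes: 4 genes have 2 probes and 6 genes have 1.

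The study asked how loss of Drp1, the GTPase that divides mitochondria and peroxisomes, changes contacts between organelles, metabolism and inflammation in the liver. Total RNA from the livers of male C57BL/6J mice was labelled in a single color and measured on 4 Agilent arrays. Each of the 4 groups has 1 array, so no group has a replicate and the number of arrays limits the precision. Drp1LiKO mice carry floxed Drp1 alleles and Cre recombinase under the albumin promoter, which is meant to delete the gene in hepatocytes and not in other liver cells. Cont mice are littermates with the floxed alleles and no Cre.

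All groups received a high-fat diet, begun at 4 weeks of age and kept for 24 weeks by the labels. The refed Cont and refed Drp1LiKO livers were taken after a fast, of 17 h by the labels and 16 h by the study's methods, and 4 h of refeeding. The labels of the other Cont and Drp1LiKO livers name no feeding state. They are taken as fasted because the study describes them so, and their raw data are shared with earlier submissions. All statements on fasting below depend on this. By the study's methods, experiments after an overnight fast were done in the morning and refed samples were collected in the afternoon. Where the arrays followed these times, refeeding and time of day cannot be told apart. Dnm1l, which encodes Drp1, had a log2 genotype difference of -0.21 after fasting and -0.12 after refeeding, but whether its probe lies in the deleted part is not known, so it does not check the genotype labels. Hepatocyte markers were present throughout, with 6 of 6 well above background on each array. In Drp1LiKO liver 5 of the 6 were lower by less than 2-fold in both states (down to -0.71 after fasting and -0.84 after refeeding), and Cps1 was higher (0.60 and 1.24). Markers of other liver cells differed in part, and those named were chosen after their values were seen. Of 6 macrophage markers 1 was at least 2-fold higher, Marco (1.65 and 1.61), and the others lay between -0.35 and 0.82. After fasting 2 of 4 countable neutrophil markers were at least 2-fold lower, S100a8 (-1.04) and S100a9 (-1.11), and 0 were higher. After refeeding 2 of 5 were higher, S100a9 (1.04) and Mpo, the latter against a side not well above background and by at least 1.05-fold only, with S100a8 at 0.94, Ly6g at 0.02 and Elane at -0.25. Of 6 stellate cell markers 1 was higher after fasting, Col1a1 (1.67), with the others between -0.74 and 0.84, and 0 after refeeding. Among 4 countable cholangiocyte markers 2 were higher after fasting and 1 after refeeding, among 4 of T or B cells 1 and 0, and among 5 of endothelial cells 0 passed 2-fold. In Cont, Drp1LiKO, refed Cont and refed Drp1LiKO liver the summed signals, in multiples of the array's 75th percentile, were 83.7, 96.6, 95.9 and 164 for macrophage markers (brightest overall Cd5l), 5.56, 3.54, 6.60 and 10.4 for neutrophil markers (S100a9), 1.14, 2.10, 1.49 and 1.60 for stellate cell markers (Lrat) and 0.494, 1.08, 0.564 and 1.02 for cholangiocyte markers (Spp1). Their part in the thioesterase values was not tested. In whole liver, fewer cells of a type and less RNA per cell cannot be told apart.

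Acyl-CoA thioesterases cleave the thioester bond of an activated fatty acid and release the free acid and coenzyme A. They act opposite to the acyl-CoA synthetases, and in liver they help set how much acyl-CoA is held in the cytosol, the mitochondria and the peroxisomes. The type I enzymes are close copies encoded next to each other, several of them known as targets of PPARalpha that are induced by fasting, whereas the type II enzymes are unrelated in sequence and carry a hotdog fold.

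The type I genes Acot1 to Acot6 are read by 9 probes that lie on chromosome 12 within 118 kb of the mm9 build. Because these genes are close copies, a probe may also bind RNA of a neighbour, which was not tested, and the probe sequences are shown for the genes on which the results turn. Where a probe may reach past the coding part, a stretch of 30 bases is given. Capitals mark the polyadenylation hexamer AATAAA.
Acot1 probe at chr12:85358561-85358620: aaaagtgccaggAATAAAaaggaaccatga
Acot2 probe at chr12:85334071-85334130: ggggaaacctcatatatattatcacaatgt
Acot3 second probe at chr12:85399468-85399527: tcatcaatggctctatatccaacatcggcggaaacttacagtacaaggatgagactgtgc
Acot4 probe at chr12:85384821-85384880: tgctggatgacatgaaattcatgtttaggg
Acot5 first probe at chr12:85416634-85416693: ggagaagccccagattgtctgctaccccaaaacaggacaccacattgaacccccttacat
Acot5 second probe at chr12:85416893-85416951: atatatgcattgttttcttcttttAATAAA

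All 6 of these probes read the plus strand, and the coordinates are those the scanner files give for the whole probe. The hexamer AATAAA stands in 5 of the 14 thioesterase probes and in 12.6% of the 39429 probes of the array.

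Levels are given as log2 signal relative to the 75th percentile of the array, so that 0 is that percentile. Levels of different thioesterase genes are not set against each other. Where marker signals are summed, the brightest gene is named only to show which one weighs most in the sum. A difference is the log2 level in Drp1LiKO minus that in Cont, or the refed minus the fasted level. Its SE comes from the scanner's error model, covers measurement error only, and is close to 0.20 for bright probes. Probes printed several times had a median SD between spots of 0.06 to 0.07. A gene was counted when its difference was at least 2-fold and the brighter of the 2 signals was well above background by the scanner's own flag. All 10 genes passed this filter in each of the 4 comparisons, since each has a probe that was well above background on all 4 arrays.

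After fasting, 4 of the 10 thioesterase genes differed at least 2-fold between genotypes. Acot2 and Acot9 were higher in Drp1LiKO liver, and Acot3 and Acot11 were lower. Over all 17678 genes that could be counted, 8.22% were at least 2-fold higher and 5.29% lower. After refeeding, 5 of the 10 differed: Acot9 was higher, and Acot1, Acot3, Acot4 and Acot5 were lower. The corresponding shares of 17019 genes were 8.25% higher and 6.49% lower. Acot3 and Acot9 passed the 2-fold mark in both feeding states.

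**Figure D1:**
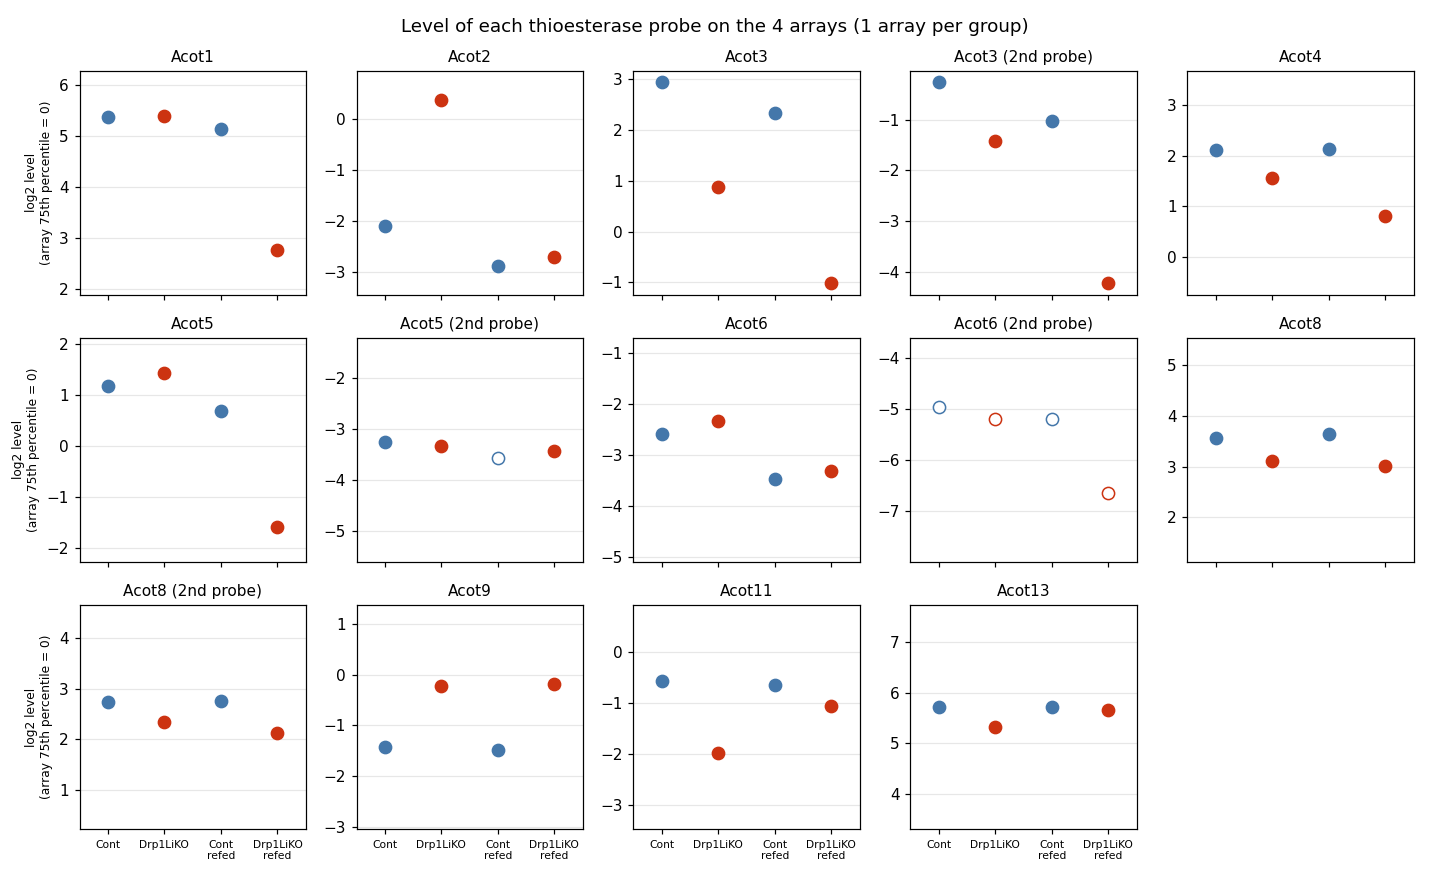
Log2 level of each of the 14 thioesterase probes on the 4 arrays, relative to the array's 75th percentile (vertical axis, the same span in each panel). Blue points are Cont and red points Drp1LiKO, each point is 1 array, and open points are not well above background; of the probes well above background there, those of Acot1, Acot3, Acot4 and Acot8 and the first of Acot5 have their lowest point in refed Drp1LiKO liver.

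Acot1, the cytosolic type I enzyme, had a log2 level of 5.38 in Cont, 5.40 in Drp1LiKO, 5.15 in refed Cont and 2.77 in refed Drp1LiKO liver. Refed Drp1LiKO liver was low and the other 3 livers lay close together. Between genotypes the fasted livers differed by 0.03 (SE 0.20) and the refed livers by -2.38 (SE 0.20), a 5.20-fold lower signal. The difference after fasting is smaller than its SE and changed sign with the scaling, from -0.03 to 0.34.

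Acot2, the mitochondrial copy of the same enzyme, followed another order. Its level was -2.09 in Cont, 0.38 in Drp1LiKO, -2.87 in refed Cont and -2.70 in refed Drp1LiKO liver. Fasted Drp1LiKO liver was high and the other 3 were low. The genotype difference after fasting was 2.47 (SE 0.23), or 5.53-fold, which ranked 31 from the highest of 14447 genes with a signal well above background on each array. After refeeding it was 0.17 (SE 0.31), within its measurement error.

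Acot3 encodes a peroxisomal type I enzyme and was lower in Drp1LiKO liver in both feeding states. By its first probe the level was 2.93 in Cont, 0.88 in Drp1LiKO, 2.32 in refed Cont and -1.02 in refed Drp1LiKO liver. Both Cont livers were high, fasted Drp1LiKO liver was lower and refed Drp1LiKO liver the lowest. Drp1LiKO liver differed from Cont by -2.05 (SE 0.20) in the fasted and -3.34 (SE 0.21) in the refed state, a 10.1-fold lower signal that ranked 11 from the lowest of the 14447 genes. The second probe gave -1.15 (SE 0.21) and -3.19 (SE 0.33). The 2 probes are close after refeeding, and after fasting they differ in size by more than their SEs but not in direction. In refed Drp1LiKO liver the second probe was dim, at 28.3 before scaling where the array median was 42.6. Its value after refeeding may be limited by the background.

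Acot4, a peroxisomal type I enzyme that acts on succinyl-CoA and other dicarboxylic acyl-CoAs, varied less. Its level was 2.11 in Cont, 1.55 in Drp1LiKO, 2.12 in refed Cont and 0.81 in refed Drp1LiKO liver. The Cont livers were alike and refed Drp1LiKO liver was the lowest. The genotype difference was -0.55 (SE 0.20) after fasting, under 2-fold, and -1.31 (SE 0.20) after refeeding.

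Acot5 encodes another peroxisomal type I enzyme. The first probe had a level of 1.17 in Cont, 1.43 in Drp1LiKO, 0.68 in refed Cont and -1.58 in refed Drp1LiKO liver, so refed Drp1LiKO liver was low. The genotypes differed by 0.26 (SE 0.20) when fasted and by -2.26 (SE 0.21) when refed. The second probe was at -3.25, -3.34, -3.56 and -3.42 in the same order, and in refed Cont liver it was not well above background. Its genotype differences were -0.08 (SE 0.34) when fasted and 0.13 (SE 0.46) when refed, the latter against a side not well above background. For refeeding in Drp1LiKO liver, where both sides were well above background, it gave -0.09 (SE 0.30) and the first probe -3.01. Before scaling, its signals there were 71.5 and 49.0, near the array medians of 62.4 and 42.6. A fall as large as that of the first probe could not be read in full from signals so dim. The lower signal of Acot5 in refed Drp1LiKO liver rests on the first probe alone, and why the 2 probes differ was not tested. Over the 4 arrays the centred profile of the first Acot5 probe lay at a Euclidean distance of 0.37 from that of Acot1, the smallest of any pair of the 10 genes.

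Acot6, also of the type I cluster, had a level of -2.59 in Cont, -2.33 in Drp1LiKO, -3.48 in refed Cont and -3.33 in refed Drp1LiKO liver. Both refed livers were lower than both fasted ones and the genotypes were alike, with differences of 0.26 (SE 0.24) and 0.15 (SE 0.37). Its other probe was well above background nowhere and gives no difference.

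**Figure D2:**
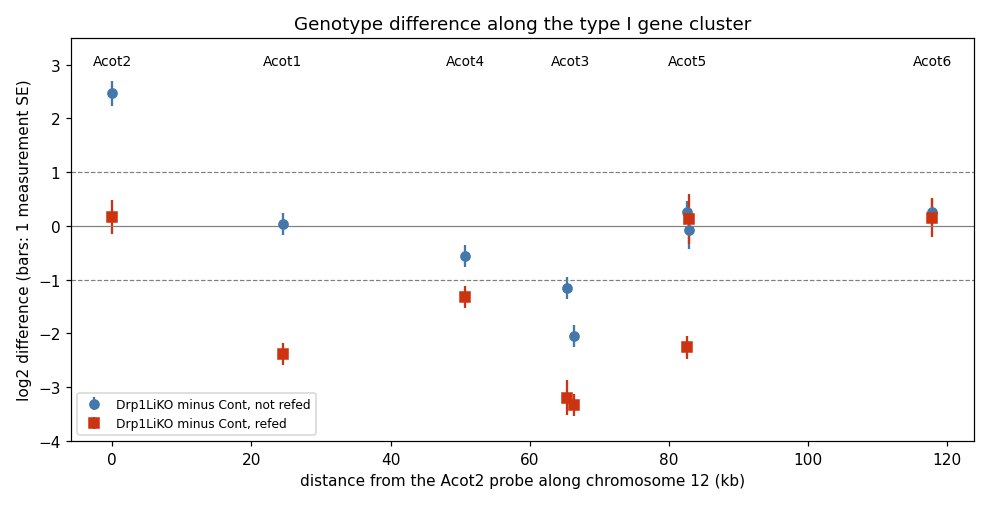
Genotype difference of the type I probes (vertical axis, log2, with 1 measurement SE) against distance from the Acot2 probe along chromosome 12 (horizontal axis, kb). Circles are fasted and squares refed livers, dashed lines mark 2-fold, and the Acot6 probe that is above background on no array is left out; after refeeding the Acot1, Acot4, Acot3 and first Acot5 probes lie below the lower dashed line, and the second Acot5 probe is not well above background in refed Cont liver.

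Along the cluster the order of the probes is Acot2, Acot1, Acot4, Acot3, Acot5 and Acot6. The genes lower after refeeding lie between 2 that were not, both of them dim in the refed livers. For the stretch around it, the 5 nearest genes on each side by RefSeq order with a signal well above background on each array were read, a choice made after the values were seen. Of these 10 neighbours, 2 were at least 2-fold lower in refed Drp1LiKO liver, Zfyve1 with a log2 difference of -1.38 and Rbm25 with -1.23, both on the side of Acot2. After fasting 1 was higher, Mideas with 1.08.

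RefSeq promoter sequences of GRCm38.p6 were held for 8 of the 10 genes. They were searched on both strands for the direct repeat that PPARalpha and HNF4 are known to bind, AGGTCA, 1 base and again AGGTCA, allowing 2 mismatches. Among the 8 genes 1 had a match, Acot4, on the strand opposite to the gene and from 13 to 1 bases before its start. The match is in capitals, in plus strand sequence of chr12:84038342-84038401.
Acot4 promoter: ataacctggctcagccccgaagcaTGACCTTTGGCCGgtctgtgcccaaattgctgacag
Such a match was found in 3.86% of all 32851 promoters of 300 bases, and it is a description of letters in this window only.

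Among the type II genes, Acot8 encodes a peroxisomal enzyme of broad specificity. Its level was 3.56 in Cont, 3.11 in Drp1LiKO, 3.64 in refed Cont and 3.02 in refed Drp1LiKO liver by one probe and 2.74, 2.35, 2.76 and 2.12 by the other. Both probes were lower in both Drp1LiKO livers, by less than 2-fold. Their genotype differences were -0.46 and -0.40 after fasting and -0.62 and -0.65 after refeeding, each with an SE of 0.20. By the brighter probe, the difference after fasting was -0.26 with quantile normalization and with the authors' table.

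Acot9, a mitochondrial type II enzyme, was higher in Drp1LiKO liver and the same in both feeding states. Its level was -1.42 in Cont, -0.22 in Drp1LiKO, -1.48 in refed Cont and -0.19 in refed Drp1LiKO liver, so the Drp1LiKO livers were high and the Cont livers low. Drp1LiKO exceeded Cont liver by 1.20 (SE 0.21) when fasted and by 1.28 (SE 0.22) when refed. The background was also corrected by normexp, with an offset of 50 added to each signal. The values were then 0.94 and 0.98 and no longer reached 2-fold. Such an offset makes the differences of dim probes smaller, and normexp without it was not tried.

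Acot11, also called Them1 and known as a thioesterase of brown fat, had a level of -0.56 in Cont, -1.98 in Drp1LiKO, -0.63 in refed Cont and -1.05 in refed Drp1LiKO liver. Fasted Drp1LiKO liver was low. Between genotypes it differed by -1.42 (SE 0.21) when fasted and by -0.41 (SE 0.21) when refed. Markers of brown adipocytes differed between the same livers. After fasting 4 of 4 (Ucp1, Cidea, Cox8b and Cox7a1) were at least 2-fold lower in Drp1LiKO liver, and after refeeding 3 of the 3 that could be counted. Their summed signal, in multiples of the array's 75th percentile, was 8.27 in Cont, 1.43 in Drp1LiKO, 22.7 in refed Cont and 1.13 in refed Drp1LiKO liver. Its rise on refeeding in Cont liver is that of Cidea alone (2.21), since Cox8b fell (-1.74), Ucp1 went below the background mark and Cox7a1 moved by 0.03. Cidea, which weighs most in this sum in both Cont livers, is also expressed by fatty liver, and Ucp1 was well above background in fasted Cont liver only. Of 6 adipocyte markers, Adipoq, Plin1, Lep and Retn were well above background on no array, and Cfd and Fabp4 on all 4. Cfd, which weighs more than Fabp4 in their summed signal in both Cont livers, differed between genotypes by -5.07 after fasting and -6.27 after refeeding, and Fabp4 by 0.01 and 0.31. The summed signal of the 6 was 6.78 in Cont, 2.64 in Drp1LiKO, 24.7 in refed Cont and 3.71 in refed Drp1LiKO liver, and its rise in Cont liver is that of Cfd (2.37). The part of these markers in the Acot11 values was not tested.

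Acot13, or Them2, a long-chain acyl-CoA thioesterase found at mitochondria and in the cytosol, varied little, at 5.71 in Cont, 5.32 in Drp1LiKO, 5.72 in refed Cont and 5.65 in refed Drp1LiKO liver. The genotypes differed by -0.39 (SE 0.20) when fasted and by -0.07 (SE 0.20) when refed. Neither reached 2-fold. The first was -0.10 with quantile normalization and with the authors' table, and the sign of the second changed with the scaling.

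**Figure D3:**
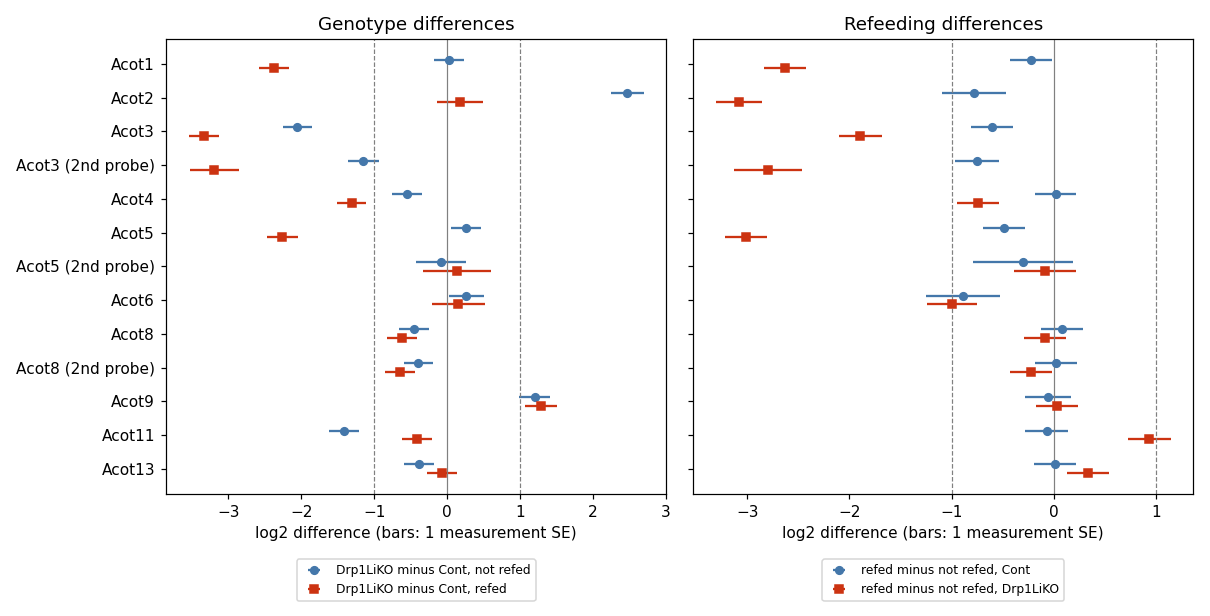
Genotype differences (left) and refeeding differences (right) of the 13 thioesterase probes above background on at least 1 array, on the log2 scale with 1 measurement SE; dashed lines mark 2-fold. On the right, no probe passes 2-fold in Cont liver (blue), while Acot1, Acot2, Acot3 and the first Acot5 probe do so in Drp1LiKO liver (red).

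In Cont liver, 0 of the 10 genes differed at least 2-fold between the refed and the fasted state, where 4.5% of 16331 genes were higher and 5.87% lower. The refeeding differences ran from -0.89 (SE 0.36) for Acot6 and -0.78 (SE 0.31) for Acot2 to 0.08 (SE 0.20) for Acot8. Most lay within 2 SEs of 0, and those of Acot6, Acot2, Acot3 (-0.61, SE 0.20) and Acot5 (-0.49, SE 0.20) lay beyond. With normexp and its offset of 50, which shrinks the differences of dim probes, those of Acot6 and Acot2 were -0.19 and -0.30. Of the cell markers other than those of adipocytes, 1 passed 2-fold here, Marco (1.34).

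In Drp1LiKO liver, 4 of the 10 genes were at least 2-fold lower after refeeding and 0 higher, where 5.62% of 18277 genes were higher and 7.17% lower. The differences were -2.63 (SE 0.20) for Acot1, -3.08 (SE 0.23) for Acot2, -1.89 (SE 0.21) for Acot3 (-2.80, SE 0.33, by its second probe) and -3.01 (SE 0.21) for Acot5. Acot5 is counted by its first probe, and its second, too dim to show a fall of that size in full, gave -0.09 (SE 0.30). The 4 genes are all of type I. Just short of the mark were Acot6 and Acot11. Acot6 was at -0.998 (SE 0.25), at -0.42 with normexp and at -1.22 with the median over its probes, 1 of which is not above background. Acot11 was higher by 0.93 (SE 0.21), and passed 2-fold with median scaling (1.02), quantile normalization and the authors' table (both 1.01). Cell markers moved in this comparison too. Of 5 neutrophil markers 3 were higher, S100a8 (2.36), S100a9 (from a level of 0.33 to 2.53) and Mpo (at least 2.45-fold), of 4 countable cholangiocyte markers 2, Krt19 (1.07) and Krt7 (1.12), of 6 macrophage markers 1, Marco (1.30), and of 2 countable adipocyte markers 1, Cfd (1.16), while 2 of 6 stellate cell markers were lower, Col1a1 (-1.01) and Acta2 (-1.19). These too were named after their values were seen. The refeeding and genotype comparisons share arrays, so the low levels of refed Drp1LiKO liver enter both.

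The refed minus the fasted genotype difference puts all 4 arrays together. It was -2.41 (SE 0.29) for Acot1, -2.30 (SE 0.39) for Acot2 and -2.52 (SE 0.29) for Acot5 by its first probe. The second Acot5 probe, not well above background in refed Cont liver, gave 0.22 (SE 0.57). For Acot3 it was -1.28 (SE 0.29) by the first and -2.04 (SE 0.39) by the second probe. For Acot2 it comes from a high fasted Drp1LiKO liver and for Acot1 and Acot5 from a low refed one. Acot4 gave -0.76 (SE 0.29) and Acot11 1.004 (SE 0.30), whereas Acot9 gave 0.088 (SE 0.30). With 1 array in each group these values carry no estimate of the spread between mice.

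By the Euclidean distance between centred log2 profiles over the 4 arrays, among 14422 genes outside the family, Acot1 was nearest to Mfsd2a (0.37), Tatdn2 (0.44) and Hebp1 (0.48). Acot2 was nearest to 9430099O15Rik (0.58), Trp53inp1 (0.71) and Ccn2 (0.91). Acot3 was nearest to a transcript named only by an Ensembl identifier (0.35), to Cyp2b13 (0.81) and to Plekhb1 (0.82). Acot4 was nearest to Tlr5, Sec22c and Cyp2c68, at distances of 0.11 to 0.12. So few points allow many genes to lie close by, and nothing is read from a single neighbour.

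Other genes of the pathway came from 9 fixed lists, and their medians stand beside those of all genes, -0.07 after fasting and -0.03 after refeeding. The 6 type I genes had a median genotype difference of 0.14 after fasting and -1.79 after refeeding, or 0.02 and -1.19 with the median over all probes of each gene. The 4 type II genes had -0.42 and -0.24, the first of which was -0.18 with quantile normalization and with the authors' table. Of the other thioesterases 13 could be counted, with medians of -0.15 and -0.13, and the fasted one turned to 0.06 with the same alternatives. Acot7, Acot10 and Acot12 were under 2-fold, at -0.45, 0.06 and 0.14 after fasting and -0.43, 0.06 and -0.24 after refeeding. In this list 1 gene passed 2-fold, Olah, the thioesterase that ends fatty acid synthesis in mammary gland, which falls outside the naming rule and was picked out after its values were seen. It was well above background in fasted Cont and refed Drp1LiKO liver only, so that Drp1LiKO liver was at least 9.34-fold lower after fasting and at least 5.81-fold higher after refeeding. These bounds set the dim side at its own signal or, if higher, at the dimmest signal that passed the background flag of its array. The amino acid N-acyltransferases, relatives of the type I enzymes that conjugate rather than release the acyl group, had 0 of 3 past 2-fold in either state and medians of 0.01 and 0.04. Baat was at 0.17 and 0.03, Acnat1 at -0.55 and 0.04 and Acnat2 at 0.01 and 0.48.

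**Figure D4:**
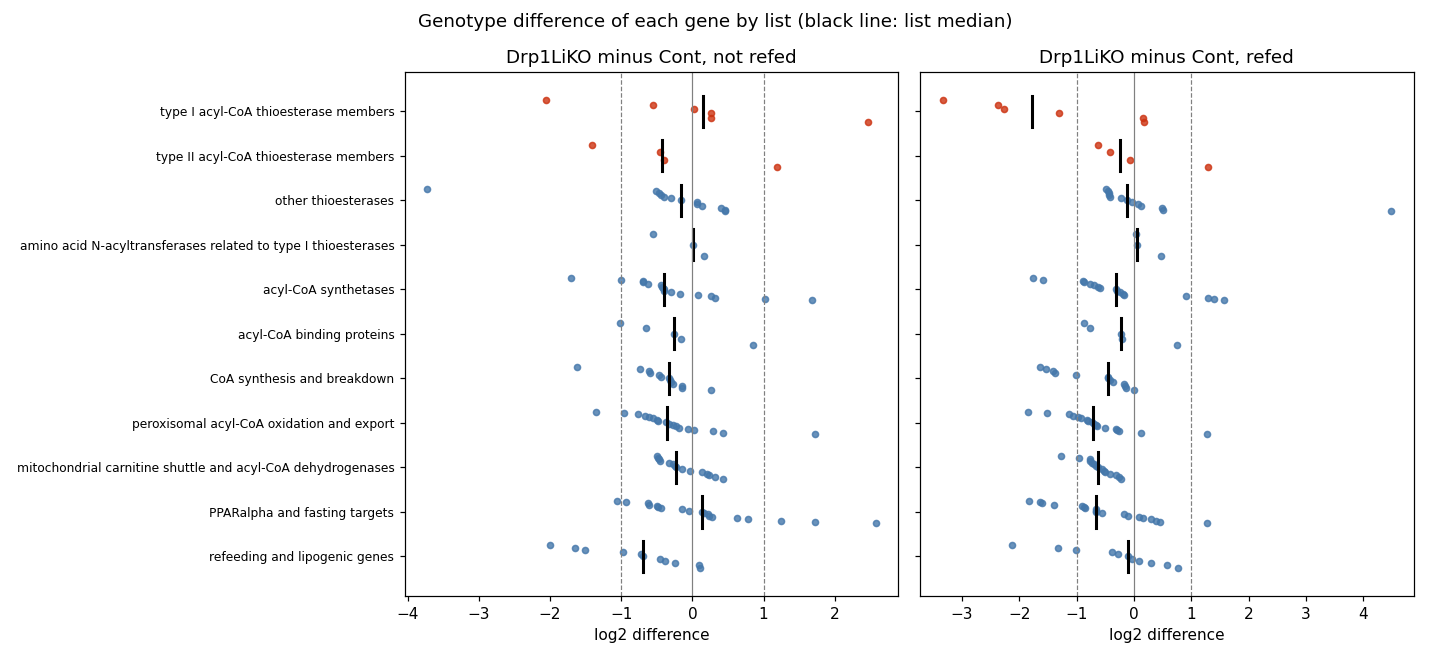
Genotype difference of each gene in 11 lists (horizontal axis, log2; left fasted, right refed livers), with the list median as a black line and 2-fold as dashed lines. Red points are the thioesterase genes described here; after refeeding the type I median is -1.79 and the medians of the other lists lie between -0.72 and 0.04.

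Among the acyl-CoA synthetases, which make the substrates of the thioesterases, 2 of 17 were at least 2-fold higher and 2 lower after fasting, and 3 were higher and 2 lower after refeeding, with medians of -0.40 and -0.32. Of these 3, Acss1 and Slc27a3 were not well above background in refed Cont liver, and by the bound used for Olah they were higher by at least 1.52-fold and 1.78-fold only. Acss3 was at -1.70 and -1.76, Slc27a3 and Acsm1 after fasting at 1.01 and -1.01, Acsl1, the main long-chain enzyme of liver, at -0.62 and -1.59, Acsl4 at 1.68 and 1.57, Acsl3 at 0.31 and 0.90 and Acsl5 at 0.26 and -0.17. In CoA synthesis and breakdown, with medians of -0.33 and -0.45, 1 of 13 genes was lower after fasting, Nudt7 (-1.62), and 5 after refeeding, among them Vnn1 (-1.63), Enpp1 (-1.53), Pank1 (-1.41), which starts CoA synthesis, and the CoA carrier Slc25a42 (-1.37). The acyl-CoA binding proteins had 1 of 5 lower after fasting, Acbd4 (-1.02), and 0 after refeeding, with medians of -0.26 and -0.23.

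Of 18 peroxisomal genes, 1 was higher in both states, Ehhadh (1.73 and 1.26), and 1 was lower after fasting, Abcd2 (-1.36), and 4 after refeeding, with Pex11a at -1.85, Acaa1b at -1.53 and Crat at -1.14. The median was -0.36 after fasting and -0.72 after refeeding, when 16 of the 18 were below 0. With quantile normalization it was -0.04 after fasting and -0.51 after refeeding. None of 15 genes of the carnitine shuttle and mitochondrial beta-oxidation passed 2-fold after fasting and 1 was lower after refeeding, Slc22a5 (-1.28), with Cpt1a at 0.24 and -0.57. After refeeding 15 of the 15 were below 0, with a median of -0.63, and after fasting the median was -0.23, or 0.01 with quantile normalization. Among 19 PPARalpha and fasting targets, 3 were higher and 1 lower after fasting and 1 higher and 4 lower after refeeding, with medians of 0.13 and -0.66. With quantile normalization these medians were 0.36 and -0.41. Fgf21 was at 2.58 after fasting, and Angptl4 at -1.60 after refeeding. Ppara itself was at -1.06 and -1.39, Pdk4 at 1.24 and 0.38 and Cyp4a14 at 0.28 and 0.08. Refeeding and lipogenic genes had 3 of 11 lower in either state, among them Thrsp (-2.00) and Srebf1 (-1.65) after fasting and Scd1 (-2.13) and Thrsp (-1.32) after refeeding, with medians of -0.70 and -0.10.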

How the data were processed

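The deposited intensity values are processed signals, with background subtracted within each array by Feature Extraction (10.7.1.1 in the headers, 9.5.1.1 in the labels). The labels' RNA kit and array design differ from those in the study's methods. All 4 arrays lie on 1 slide and were scanned on 1 day. Log2 signals were set relative to the 75th percentile (461, 722, 357 and 526 in Cont, Drp1LiKO, refed Cont and refed Drp1LiKO), outlier spots were left out, and repeated spots averaged, leaving 39392 probes. RefSeq accessions named 26761 probes. A gene was read by the probe well above background on most arrays, then the brightest. The authors' table, linear and matched by a quantile normalization, has a median of 39.6 in each column. Members and lists were chosen with earlier results of these data known. Named were all members, at most the 4 largest genes of a list past 2-fold and well above background on both arrays, and a fixed set of genes whatever their value. Python 3.11.15 with numpy 2.4.6 and pandas 2.3.3 and R 4.3.3 with limma 3.58.1 (normexp only) were used, and the 2-fold rule was tested on simulated data. Proteins were not used here, and some genes and a probe sequence are not reported here.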

Additional observations from a re-analysis of the deposited data

Results flagged for a closer look

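In 6 cases a thioesterase gene differed in opposite directions in the 2 groups compared, and no such difference was tested, since each group has 1 array. In none of the 6 were both differences beyond 2 measurement SEs, so 1 direction or both may be measurement error. Between feeding states, the genotype difference of Acot1 (0.03 after fasting, -2.38 after refeeding) moved by -2.41 and that of Acot5 (0.26, -2.26) by -2.52, the latter by its first probe alone. Between genotypes, the refeeding difference in Drp1LiKO minus that in Cont was -0.76 for Acot4, -0.17 for Acot8, 0.088 for Acot9 and 1.004 for Acot11. The refeeding difference in Cont changed sign in 4 of 6 alternatives for Acot4, 2 for Acot8, 1 for Acot9 and 0 for Acot11. The genotype difference of Acot1 after fasting changed sign in 1 of 6.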

How the results depend on the processing

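The counts of thioesterase genes past 2-fold stayed between 3 and 4 after fasting, 4 and 6 after refeeding, and 3 and 7 for refeeding in Drp1LiKO liver. With a 1.5-fold threshold, 3 genes passed for refeeding in Cont liver in place of 0, all lower, and 7 in Drp1LiKO liver in place of 4 (6 lower, 1 higher), as a lower threshold allows. Requiring each measured probe of a gene to pass, an alternative chosen after seeing the data, removed Acot5 through its second probe and left 4 genes after refeeding and 3 for refeeding in Drp1LiKO liver. Read by that second probe, the Acot5 genotype difference after refeeding was 0.13 in place of -2.26, but refed Cont liver is not well above background there. For refeeding in Drp1LiKO liver, with both sides above it, the second probe gave -0.09 in place of -3.01. It is too dim to show a fall of that size in full. With normexp and its offset of 50, Acot2 after fasting was 1.97 and Acot9 fell short of 2-fold in both states. The offset makes the differences of dim probes smaller. Quantile normalization and the authors' table brought Acot1 after fasting to 0.34. Of 188 differences of single thioesterase genes under alternatives that could move them, 150 moved by less than 1 SE and 38 by 1 SE or more. Outlier spots, of which the thioesterase probes had 0, and the median over probes of genes with 1 probe could move nothing. Among the list medians, that of the type I genes after refeeding was -1.19 with the median over all probes. With quantile normalization, that of the other thioesterases after fasting turned from -0.15 to 0.06. That of the carnitine shuttle and acyl-CoA dehydrogenases turned from -0.23 to 0.01 after fasting. The peroxisomal median moved from -0.36 to -0.04 after fasting and from -0.72 to -0.51 after refeeding. That of the PPARalpha and fasting targets moved from 0.13 to 0.36 and from -0.66 to -0.41 in the same order. After fasting, that of the type II genes moved from -0.42 to -0.18 and that of the refeeding and lipogenic genes from -0.70 to -0.49. No scaling moved the median of all genes by over 0.1. No paired analysis was possible because each group has 1 array and no result comes from a test. The protein comparison was not run.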
